A study of Mus musculus with 6 samples.

Results

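Amino acid transporters are the membrane carriers that bring amino acids and related compounds into the cell or move them out of the lysosome. Here they were taken as the protein-coding genes whose symbol places them in the solute carrier families SLC1, SLC3, SLC6, SLC7, SLC36, SLC38 or SLC43. The count table held 64 such genes among its 55804 rows, and 30 of them had enough reads to be tested. The name rule also takes in Slc7a6os, which lies 2.01 kb from Slc7a6 on the other strand and encodes no carrier. It takes in a few SLC6 genes for carriers of taurine, creatine or monoamines as well.

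In a muscle cell the large neutral amino acids, leucine among them, enter mainly through exchangers built from a heavy chain (CD98, encoded by Slc3a2) and a light chain of the SLC7 family such as LAT1 (Slc7a5). Arginine and lysine enter through the CAT carriers of SLC7, glutamine and small neutral amino acids through SLC1 and SLC38 carriers, and taurine and creatine through SLC6 carriers. When amino acids run short or the endoplasmic reticulum is stressed, kinases that phosphorylate eIF2 alpha raise translation of the transcription factor ATF4, which induces biosynthetic enzymes and several of these transporters. Amino acids delivered to the lysosome also set the activity of the growth kinase mTORC1.

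The RNA came from C2C12, mouse myoblasts in continuous culture that can be made to fuse into myotubes by low serum. The Prr33-gRNA cells carried a CRISPR/Cas9 guide RNA against Prr33 and are given the genotype PRR33 knocked down, and the Ctrl-gRNA cells carried a control guide RNA and are given as WT. All cells were grown in 20% fetal bovine serum and collected on day 3 in differentiation medium with 2% horse serum, which was renewed daily. Each group had 3 libraries. The labels name no more than 1 line per guide, so an effect of the guide and a difference between derived lines cannot be told apart, and separate cultures within a group are not stated, so the p-values measure only the spread between the libraries at hand, which may be technical.

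The Prr33-gRNA libraries held 17412383 to 19471762 counts each and the Ctrl-gRNA libraries 17006381 to 19118010. Prr33 itself had 793, 829 and 848 counts in the Prr33-gRNA libraries and 1137, 990 and 913 in the Ctrl-gRNA libraries, a log2 fold change of -0.42 (SE 0.06; edgeR adjusted p = 1.37e-06). Levels below are CPM, read counts divided by the library size after TMM scaling. Log2 fold changes take Prr33-gRNA over Ctrl-gRNA in edgeR's quasi-likelihood test, with p-values adjusted over 14651 genes. Of 9 muscle markers 8 were lower and 1, Ckm, was higher, with a summed level of 15371 to 16298 CPM in Prr33-gRNA and 27138 to 27625 CPM in Ctrl-gRNA. Of 6 markers of cycling or undifferentiated myoblasts 5 were higher and 1, Pax7, was lower, at 1005 to 1058 CPM in Prr33-gRNA and 763 to 805 CPM in Ctrl-gRNA. Fewer cells of a kind and less RNA per cell cannot be told apart in bulk RNA, and the part of these markers in the values below was not tested. Of 5 fibroblast markers, which summed to 57.0 to 59.4 CPM in Prr33-gRNA and 192 to 215 CPM in Ctrl-gRNA, Col1a1, Dcn and Pdgfra were lower, Col1a2 was higher and Lum had 0 counts. The 5 adipocyte markers and the 4 endothelial markers had too few reads to be tested, summing to at most 0.0595 and 1.45 CPM in any library. Among 4 macrophage markers, which summed to at most 1.82 CPM, Cd68 alone was tested and did not pass, and 2 were at 0. Among 4 neuronal markers Stmn2 alone was tested and was higher, Rbfox3, Snap25 and Syt1 being too low, and the list summed to 58.5 to 61.4 CPM in Prr33-gRNA and 45.4 to 54.1 CPM in Ctrl-gRNA.

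Of the 30 tested genes 14 were lower and 8 higher in Prr33-gRNA, and 8 did not pass the test. Over all tested genes 26.6% were lower and 25.5% higher by the same rule (52.1% in either direction). The median log2 fold change was -0.16 over the 30 genes and -0.00 over all tested genes, and the median size of the change without regard to sign was 0.48 against 0.27. CPM ranges of the groups did not overlap for 23 of the 30 genes, 15 lower and 8 higher, against 57.9% of all tested genes, 29.3% lower and 28.6% higher. At 2-fold or more, 5 were lower and 1 higher, where 7.96% and 2.91% of all tested genes were. Slc43a1, Slc1a3 and Slc7a7 reached the low-count filter through the Ctrl-gRNA libraries alone and Slc6a15 through the Prr33-gRNA libraries alone, so these had to differ. Among the 26 genes that reached it in both groups, 11 were lower, 7 higher and 8 did not pass. At 2-fold or more the 26 held only Slc6a9 and Slc6a19, both lower.

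**Figure D1:**
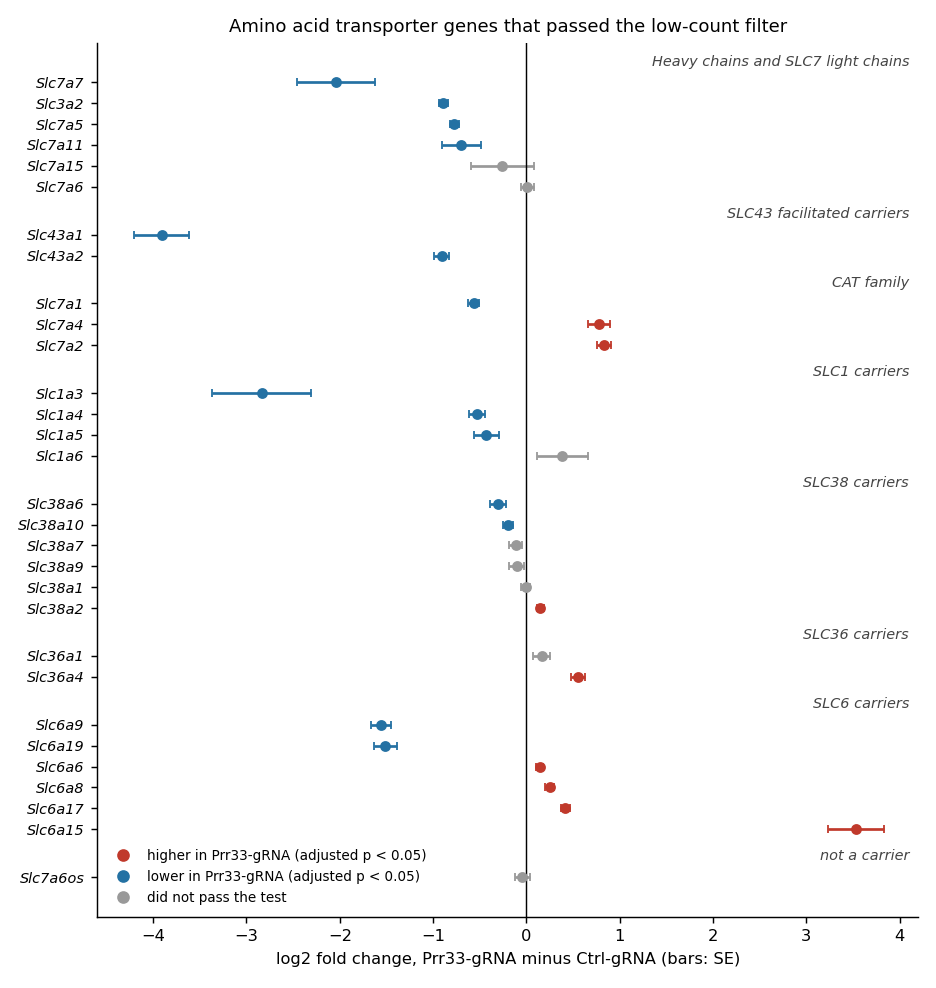
Log2 fold change (Prr33-gRNA minus Ctrl-gRNA) of each of the 30 tested genes, with its standard error, ordered by transporter class. Blue points were lower, red points higher and grey points did not pass the test. Slc43a1 at -3.91 and Slc6a15 at 3.53 mark the ends of the range, and the heavy and light chain class holds no red point.

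The CD98 heavy chain and its most abundant light chain fell, while the next light chain in abundance did not pass the test. Of 6 tested genes in this class 4 were lower and 0 higher, where 26.6% of all tested genes were lower and 25.5% higher. Slc7a7, among the 4, reached the low-count filter through the Ctrl-gRNA libraries alone. Slc3a2, on chromosome 19 at 8706882 to 8723369 (mm10, minus strand), encodes the heavy chain that brings the light chains to the cell surface. It had 93.2, 98.9 and 91.6 CPM in the Prr33-gRNA libraries, against 181, 174 and 171 CPM in the Ctrl-gRNA libraries. The difference was -0.89 on the log2 scale (SE 0.05; edgeR adjusted p = 4.66e-17). Its main partner Slc7a5, the leucine carrier LAT1, had 196, 192 and 207 CPM in Prr33-gRNA, against 335, 357 and 325 CPM in Ctrl-gRNA (-0.77, SE 0.05; edgeR adjusted p = 2.82e-16). In neither gene did the groups overlap, and the gap between them was several times the spread within them.

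Slc7a6, the light chain y+LAT2 that exchanges arginine for neutral amino acids, stood at 46.6 ± 3.64 CPM in Prr33-gRNA and 46.3 ± 1.73 CPM in Ctrl-gRNA (SD, n = 3 each), with overlapping groups and a log2 fold change of 0.01 (SE 0.07). Its neighbour Slc7a6os, which is no carrier, had -0.04 (SE 0.08) and did not pass. Slc7a11, the cystine and glutamate exchanger xCT, was low, with 3.75, 2.21 and 4.15 CPM in Prr33-gRNA, against 6.05, 5.45 and 4.94 CPM in Ctrl-gRNA. The log2 difference was -0.70 (SE 0.21; edgeR adjusted p = 0.00550), but the call was lost without Prr33-gRNA replicate 2 (-0.47, edgeR adjusted p = 0.0574), the library with the lowest value. Slc7a15 stayed below 2 CPM in every library and did not pass (-0.26, SE 0.34, and -0.58 to -0.11 with single libraries left out).

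Slc7a7, the light chain y+LAT1, lies on chromosome 14, where 400 tested protein-coding genes had a median log2 fold change of -0.90 against 0.02 on the other autosomes and the X. It had 0.434, 0.608 and 0.200 CPM in Prr33-gRNA, against 1.24, 1.76 and 2.14 CPM in Ctrl-gRNA, a log2 fold change of -2.04 (SE 0.42; edgeR adjusted p = 9.64e-05). That is 1.15 log2 units below the median of the chromosome. Of 22 tested genes within 500 kb of it 20 were lower and 0 higher, with a median of -1.03. In GENCODE M21, 232 of its 3315 exon bases also belong to Oxa1l on the other strand, which had 2265 counts in all in Prr33-gRNA and 4229 in Ctrl-gRNA, and since the sources used here do not state the strand setting of the counting, reads of the pair cannot be told apart there. Slc7a8, the other widely expressed LAT light chain, is on the same chromosome and had 0, 0 and 0 counts in Prr33-gRNA and 3, 0 and 0 in Ctrl-gRNA.

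Per unit of gene length, in the FPKM values deposited by the authors, Slc7a5 made up most of the light chain transcripts. The summed FPKM of the light chains Slc7a5, Slc7a6, Slc7a7, Slc7a8, Slc7a10 and Slc7a11 was 63.9 ± 1.45 in Prr33-gRNA and 102 ± 4.63 in Ctrl-gRNA (SD, n = 3 each). Slc7a5 gave 82.3%, 83.0% and 85.1% of the sum in the Prr33-gRNA libraries, against 89.5%, 89.4% and 88.8% in the Ctrl-gRNA libraries. The share of Slc7a6 was 17.0%, 16.5% and 14.3% in Prr33-gRNA, against 9.70%, 9.77% and 10.2% in Ctrl-gRNA. The shares of the groups did not overlap for either gene. The ratio of heavy chain FPKM to light chain FPKM was 0.411, 0.450 and 0.397 in Prr33-gRNA and 0.509, 0.456 and 0.491 in Ctrl-gRNA. The ratio was higher in every Ctrl-gRNA library, with little room between replicate 2 of each group.

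**Figure D2:**
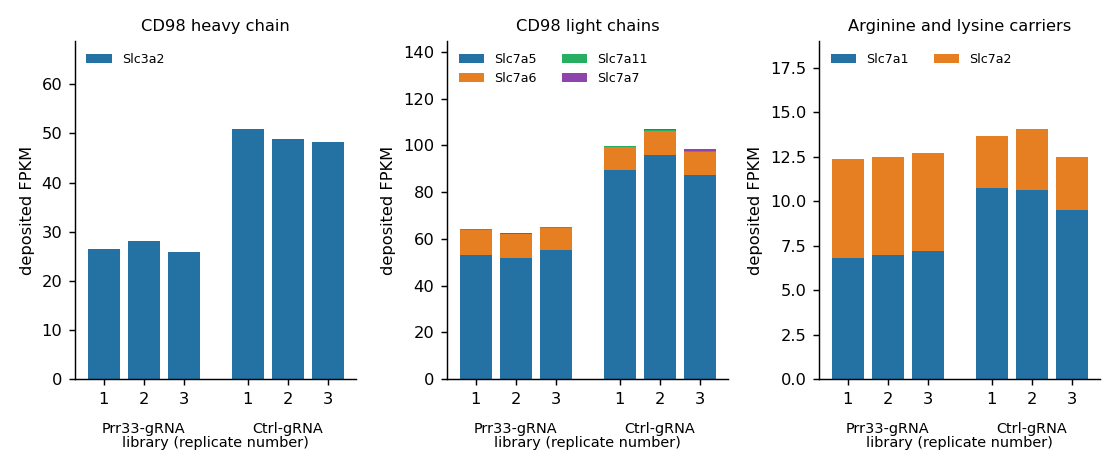
Deposited FPKM in each library for the CD98 heavy chain Slc3a2 (left), for the 4 tested CD98 light chains stacked (middle) and for the arginine and lysine carriers Slc7a1 and Slc7a2 stacked (right). The heavy chain and the light chain totals are lower in all 3 Prr33-gRNA libraries, and the Slc7a2 part of the right-hand bars is 43.4% to 45.2% in Prr33-gRNA and 21.4% to 24.4% in Ctrl-gRNA.

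Both tested SLC43 genes, whose carriers let leucine, isoleucine, valine, phenylalanine and methionine diffuse across the membrane without exchange, were lower. Slc43a1, which encodes LAT3, had 0.380, 0.332 and 0.450 CPM in the Prr33-gRNA libraries, against 7.02, 4.91 and 5.83 CPM in the Ctrl-gRNA libraries. The log2 difference was -3.91 (SE 0.29; edgeR adjusted p = 1.97e-13), the deepest fall among the 30 genes in this fit. On log2(FPKM + 1), which shrinks the change of low genes, it was -0.92, less deep than that of Slc6a9. Slc43a2, which encodes LAT4, had 18.6, 20.4 and 20.8 CPM in Prr33-gRNA, against 38.4, 37.7 and 36.2 CPM in Ctrl-gRNA (-0.91, SE 0.08; edgeR adjusted p = 1.02e-11). The Prr33-gRNA libraries held 22 reads of Slc43a1 in all and the Ctrl-gRNA libraries 309, a ratio of 15.3 per unit of library size in favour of Ctrl-gRNA (95% counting interval 9.93 to 24.8). Slc43a1 lies on chromosome 2 at 84838850 to 84863594 (plus strand). Of 16 tested genes within 500 kb of it 5 were lower and 2 higher, their median being -0.11 on the log2 scale. The deep falls among those neighbours, picked out after their values were seen, were Ube2l6 (-2.31), an interferon-induced enzyme of ISG15 conjugation, and the complement inhibitor gene Serping1 (-2.33). Slc43a3 had at most 1 count in a library. In GENCODE M21, 9.18% of the exon bases of Slc43a2 are shared with Gm45606 on the other strand, which had 4 counts in all in Prr33-gRNA and 20 in Ctrl-gRNA.

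Among the carriers of arginine and lysine, the CAT family, the members moved in opposite directions. Slc7a1, the ubiquitous carrier CAT1, had 78.2, 80.2 and 83.4 CPM in Prr33-gRNA, against 125, 123 and 110 CPM in Ctrl-gRNA (-0.57, SE 0.05; edgeR adjusted p = 8.30e-11). Slc7a2, which encodes CAT2, had 51.2, 50.5 and 50.7 CPM in Prr33-gRNA, against 26.8, 31.6 and 27.2 CPM in Ctrl-gRNA (0.83, SE 0.07; edgeR adjusted p = 5.82e-12). All 3 Prr33-gRNA libraries were below the Ctrl-gRNA range for Slc7a1 and above it for Slc7a2. The sum of the 2 genes in FPKM was 12.5 ± 0.180 in Prr33-gRNA and 13.4 ± 0.810 in Ctrl-gRNA (SD, n = 3 each). These sums overlapped between groups only through Ctrl-gRNA replicate 3, at 12.5 against 13.6 and 14.1 in Ctrl-gRNA replicates 1 and 2. Slc7a2 gave 45.2%, 44.3% and 43.4% of that sum in the Prr33-gRNA libraries, against 21.4%, 24.4% and 23.7% in the Ctrl-gRNA libraries. Slc7a4, a related protein, had 16.2, 17.3 and 16.9 CPM in Prr33-gRNA, against 10.3, 10.8 and 8.39 CPM in Ctrl-gRNA (0.77, SE 0.12; edgeR adjusted p = 9.06e-07). In GENCODE M21, 13.3% of its exon bases are shared with P2rx6 on the other strand, which had 231 counts in all in Prr33-gRNA and 191 in Ctrl-gRNA. Without the strand setting, reads of the pair cannot be told apart there. Slc7a3, the remaining carrier with reads in this class, had at most 10 counts in a library and was not tested.

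**Figure D3:**
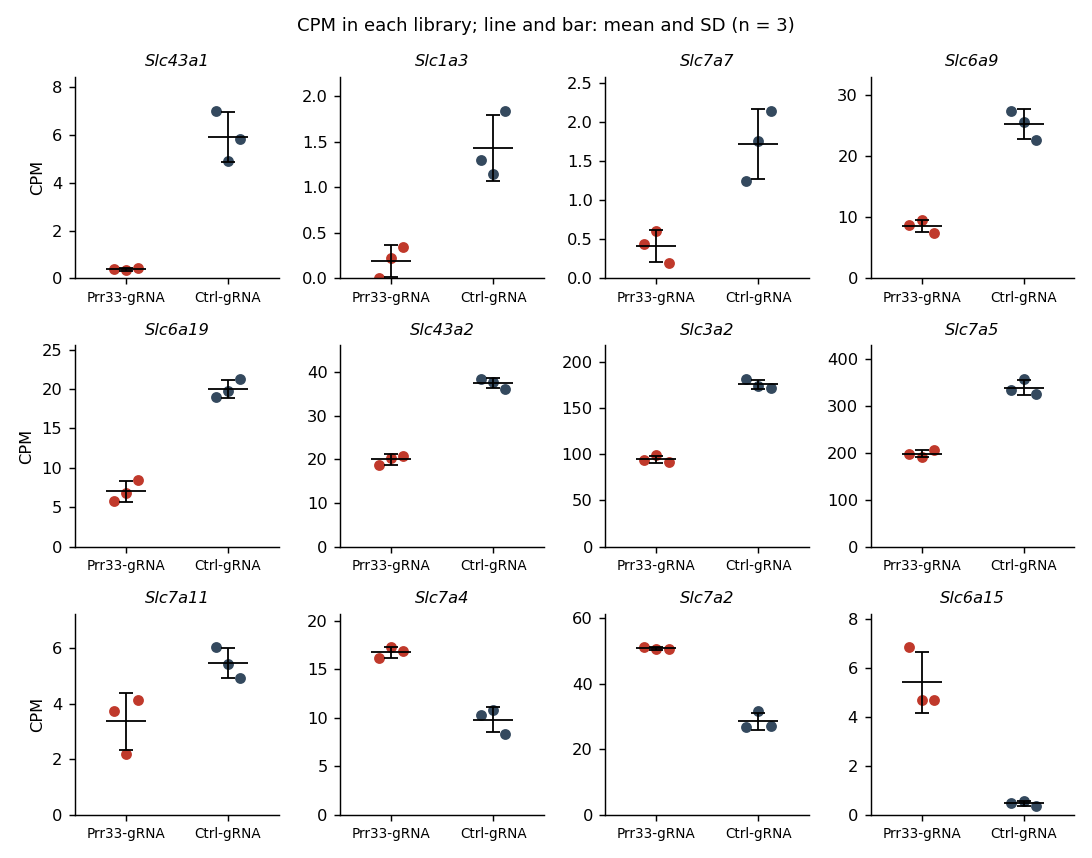
CPM in each library for the 12 genes that passed the test and moved by 0.58 or more on the log2 scale, ordered from the deepest fall to the highest rise. Points are libraries, the horizontal line is the mean and the bar its SD (n = 3). The groups do not overlap in any panel, which is no separate result because the test chose the panels. The Prr33-gRNA points are higher only for Slc7a4, Slc7a2 and Slc6a15. Slc43a1, Slc1a3, Slc7a7 and Slc6a15 reached the low-count filter only through the group where they are higher.

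Both SLC1 carriers that exchange small neutral amino acids were lower. Slc1a4, the carrier ASCT1 for serine, alanine and cysteine, stood at 21.7 ± 2.34 CPM in Prr33-gRNA and 31.3 ± 1.63 CPM in Ctrl-gRNA (SD, n = 3 each; log2 fold change -0.53, SE 0.09; edgeR adjusted p = 3.85e-06). Slc1a5, the glutamine carrier ASCT2, stood at 9.06 ± 1.66 CPM in Prr33-gRNA and 12.2 ± 0.478 CPM in Ctrl-gRNA (-0.43, SE 0.13; edgeR adjusted p = 0.00749). The call for Slc1a5 was lost without Prr33-gRNA replicate 3 (-0.28, edgeR adjusted p = 0.0864), the library with its lowest value. Of the glutamate carriers known from the nervous system, Slc1a3 (GLAST) had 0, 0.221 and 0.350 CPM in Prr33-gRNA, against 1.30, 1.15 and 1.84 CPM in Ctrl-gRNA. The groups did not overlap (-2.84, SE 0.53; edgeR adjusted p = 3.13e-05), on 11 reads in all in Prr33-gRNA and 74 in Ctrl-gRNA. Of 4 tested neighbours of Slc1a3 within 500 kb, 3 were higher and 0 lower. Slc1a6 (EAAT4) had 2.43 ± 0.210 CPM in Prr33-gRNA and 1.85 ± 0.613 CPM in Ctrl-gRNA and did not pass (0.38, SE 0.28), Slc1a2 had a single read in all, and Slc1a1 and Slc1a7 had none.

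Of 6 tested SLC38 genes 1 was higher and 2 lower, all by small steps. Slc38a2, the sodium-coupled carrier SNAT2 that adapts to amino acid supply, had 574, 547 and 569 CPM in Prr33-gRNA, against 495, 510 and 519 CPM in Ctrl-gRNA (0.15, SE 0.04; edgeR adjusted p = 0.00243). Its neighbour Slc38a1 (SNAT1), 44.5 kb from it on chromosome 15, had 128, 118 and 126 CPM in Prr33-gRNA, against 119, 129 and 127 CPM in Ctrl-gRNA. The groups overlapped for Slc38a1 (-0.01, SE 0.05), while every Prr33-gRNA library exceeded the Ctrl-gRNA range for Slc38a2. Slc38a10 had 100, 112 and 95.8 CPM in Prr33-gRNA, against 125, 115 and 114 CPM in Ctrl-gRNA (-0.20, SE 0.06; edgeR adjusted p = 0.00396), a call that was lost when libraries were scaled by size alone (-0.11, edgeR adjusted p = 0.115) and on log2(FPKM + 1) (-0.18, limma adjusted p = 0.0501). Slc38a6 was lower by a small step (-0.31, SE 0.09; edgeR adjusted p = 0.00382). Slc38a7, a lysosomal exporter of glutamine and asparagine, and Slc38a9, the lysosomal arginine sensor upstream of mTORC1, did not pass (-0.12, SE 0.07, and -0.10, SE 0.08). Slc38a4 had at most 17 counts in a library and was not tested. Of the proton-coupled SLC36 carriers, Slc36a4 rose to 43.3 ± 1.79 CPM in Prr33-gRNA, against 29.4 ± 2.71 CPM in Ctrl-gRNA (SD, n = 3 each; 0.56, SE 0.07; edgeR adjusted p = 1.14e-07). Slc36a1, found on lysosomes, had 21.8 ± 1.03 CPM in Prr33-gRNA and 19.6 ± 1.81 CPM in Ctrl-gRNA and did not pass (0.16, SE 0.09; edgeR adjusted p = 0.149), but was called higher with size scaling alone (0.25, edgeR adjusted p = 0.0221) and without Ctrl-gRNA replicate 3 (0.24, edgeR adjusted p = 0.0469).

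The SLC6 genes held both the most abundant transporter of the Prr33-gRNA cells and the furthest rise. Slc6a6, the taurine carrier, had 759, 727 and 737 CPM in Prr33-gRNA, against 702, 671 and 644 CPM in Ctrl-gRNA (0.14, SE 0.04; edgeR adjusted p = 0.00472). Slc6a8, the creatine carrier, had 153, 154 and 148 CPM in Prr33-gRNA, against 125, 130 and 127 CPM in Ctrl-gRNA (0.25, SE 0.05; edgeR adjusted p = 3.32e-05). Slc6a17, which carries neutral amino acids into synaptic vesicles in neurons, had 134, 138 and 136 CPM in Prr33-gRNA, against 102, 106 and 97.1 CPM in Ctrl-gRNA (0.42, SE 0.05; edgeR adjusted p = 1.10e-08). These 3 rises were small, and in each the groups did not overlap. Slc6a15, a neuronal carrier of proline and branched-chain amino acids, was nearly absent in Ctrl-gRNA, with 6.84, 4.70 and 4.70 CPM in the Prr33-gRNA libraries, against 0.486, 0.545 and 0.357 CPM in the Ctrl-gRNA libraries (3.53, SE 0.30; edgeR adjusted p = 3.84e-12). The reads numbered 305 in all in Prr33-gRNA and 24 in Ctrl-gRNA, a ratio of 11.7 per unit of library size (95% counting interval 7.69 to 18.5). It lies on chromosome 10 at 103367783 to 103419377 (plus strand), and no other gene within 500 kb had enough reads to be tested.

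A pair of SLC6 genes fell by about the same step. Slc6a9, the glycine carrier GlyT1, had 8.74, 9.56 and 7.49 CPM in Prr33-gRNA, against 27.5, 25.6 and 22.7 CPM in Ctrl-gRNA (-1.56, SE 0.11; edgeR adjusted p = 4.77e-14). Of its exon bases in GENCODE M21, 27.8% are shared with Ccdc24 on the other strand, which had 7 counts in all in Prr33-gRNA and 23 in Ctrl-gRNA. Slc6a19, the neutral amino acid carrier B0AT1 known from gut and kidney, had 5.76, 6.80 and 8.44 CPM in Prr33-gRNA, against 19.0, 19.8 and 21.3 CPM in Ctrl-gRNA (-1.51, SE 0.13; edgeR adjusted p = 2.31e-12). In neither gene did the libraries of the groups come near each other. Of 12 tested genes within 500 kb of Slc6a9 6 were lower and 2 higher (median -0.19), and of 11 near Slc6a19 1 was lower and 4 higher (median 0.14). A difference between these neighbourhoods was not tested. The other 15 SLC6 genes had at most 4 counts in any library, among them the dopamine and serotonin carriers Slc6a3 and Slc6a4.

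Of the 34 genes that were not tested, 19 had no read in any library and 15 had between 1 and 17 in their highest library. Slc3a1, the heavy chain of the kidney cystine carrier, had at most 9, and 26.5% of its exon bases are shared with Prepl on the other strand. In the deposited FPKM, the 5 most abundant members in Prr33-gRNA were Slc6a6 (87.4), Slc38a2 (63.6), Slc7a5 (53.4), Slc6a8 (29.1) and Slc3a2 (26.8). The order in Ctrl-gRNA was Slc7a5 (90.8), Slc6a6 (79.0), Slc38a2 (57.1), Slc3a2 (49.4) and Slc6a8 (24.3). Among these 5 no neighbours in the order overlapped over the libraries in either group, so the lower place of Slc7a5 in Prr33-gRNA, behind Slc6a6 and Slc38a2, exceeded the spread between libraries. Summed over the 64 genes the FPKM was 369 ± 3.26 in Prr33-gRNA and 418 ± 6.82 in Ctrl-gRNA (SD, n = 3 each). Their share of all counts, which weights long transcripts more, was 0.265% ± 0.00168 in Prr33-gRNA and 0.261% ± 0.00435 in Ctrl-gRNA, with overlapping libraries.

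Genes of the amino acid response, the ATF4 targets that are induced together with several of these transporters, were mostly lower. In this list of 24 tested genes 21 were lower and 1 was higher (median -0.65 on the log2 scale), where 26.6% of all tested genes were lower. Atf4 itself had 174, 170 and 167 CPM in Prr33-gRNA, against 265, 276 and 253 CPM in Ctrl-gRNA (-0.64, SE 0.05; edgeR adjusted p = 4.34e-14). Nupr1, a stress-induced chromatin protein, had 19.2, 18.7 and 18.6 CPM in Prr33-gRNA, against 53.8, 59.5 and 53.5 CPM in Ctrl-gRNA (-1.56, SE 0.07; edgeR adjusted p = 5.66e-19). Ddit3, the transcription factor CHOP, fell by 1.16, and Chac1, an enzyme that breaks down glutathione, fell by 1.42 on the log2 scale. The rise was that of Gpt2, the mitochondrial alanine transaminase, with 212, 199 and 199 CPM in Prr33-gRNA, against 97.7, 112 and 98.4 CPM in Ctrl-gRNA (0.99, SE 0.05; edgeR adjusted p = 2.43e-17). Atf4 and the secreted hormone gene Fgf21, which fell furthest (-2.75), were named after their values were seen, as was asparagine synthetase Asns (-0.34, SE 0.06). Psat1 and Psph, enzymes of serine synthesis, did not pass. The muscle markers above were lower in the same libraries.

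**Figure D4:**
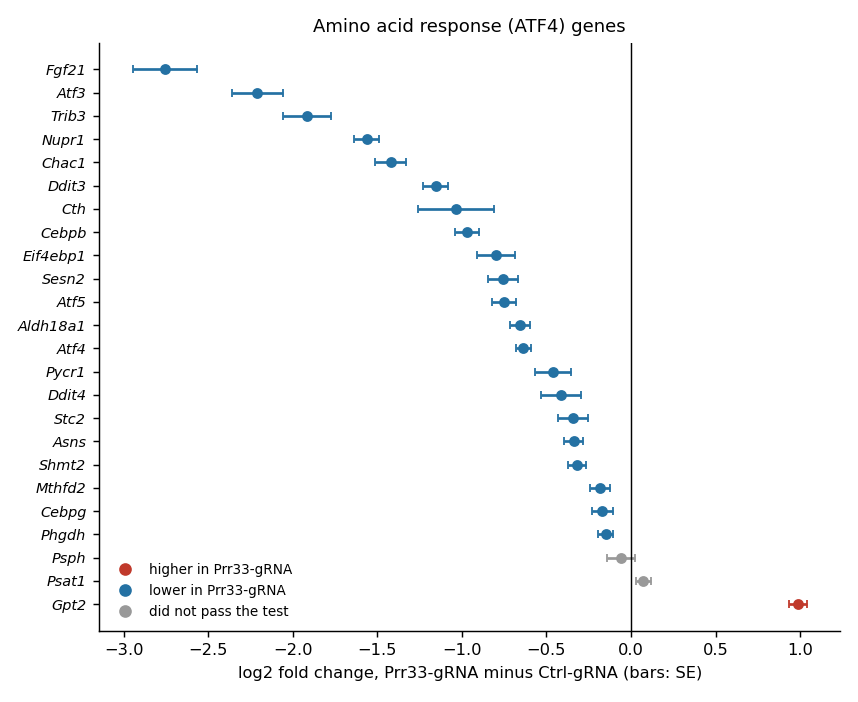
Log2 fold change (Prr33-gRNA minus Ctrl-gRNA) with its standard error for each of the 24 tested genes of the amino acid response list, from Fgf21 at -2.75 to Gpt2 at 0.99. The 21 blue points were lower, the red point was higher and the 2 grey points did not pass the test.

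Upstream of ATF4, 3 of 8 genes for the eIF2 alpha kinases and their partners were higher and 3 lower. Over all tested genes 25.5% were higher and 26.6% lower. Eif2ak2, the interferon-induced kinase PKR, fell (-1.51, SE 0.05), and so did Ppp1r15a (-1.05, SE 0.09), which encodes the stress-induced phosphatase subunit GADD34. Eif2ak4, the kinase GCN2 that senses uncharged tRNA, rose by 0.46 (SE 0.07), and Eif2s1, which encodes eIF2 alpha, by 0.26 (SE 0.05).

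The promoter windows of the transporters were searched for the CARE core TGATGNAA, a sequence bound by ATF4 with its partners. The amino acid response list was mostly lower, while 14 of the 30 tested transporter genes were lower and 8 higher, Slc38a2 (0.15) among the higher. The part of ATF4 in these changes was not tested. Windows of RefSeq (GRCm38.p6), from 250 bases before to 50 after a gene's start, were matched for 22 of the 30 tested genes. Slc1a5, Slc38a1, Slc6a15, Slc6a6, Slc6a8, Slc7a2, Slc7a4 and Slc7a5 had none. On either strand the core was found in 4 of the 33 windows of these genes, and in 3.97% of all 32851 windows. The 4 windows belong to Slc1a4, Slc7a11 and Slc7a7, which were lower in Prr33-gRNA, as were 12 of the 22 genes with a window. The windows of Slc7a11 (chr3:50443564-50443863, minus strand) and Slc1a4 (chr11:20332664-20332963, minus strand) are shown, with the matches in capitals. Slc7a7, not shown, also had a match close to a start.
Slc7a11: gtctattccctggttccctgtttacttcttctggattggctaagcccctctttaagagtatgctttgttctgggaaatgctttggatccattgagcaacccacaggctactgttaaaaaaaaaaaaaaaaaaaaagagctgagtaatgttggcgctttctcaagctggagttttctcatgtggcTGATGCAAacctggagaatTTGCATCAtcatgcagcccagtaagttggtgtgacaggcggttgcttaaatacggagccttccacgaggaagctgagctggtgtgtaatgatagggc
Slc1a4: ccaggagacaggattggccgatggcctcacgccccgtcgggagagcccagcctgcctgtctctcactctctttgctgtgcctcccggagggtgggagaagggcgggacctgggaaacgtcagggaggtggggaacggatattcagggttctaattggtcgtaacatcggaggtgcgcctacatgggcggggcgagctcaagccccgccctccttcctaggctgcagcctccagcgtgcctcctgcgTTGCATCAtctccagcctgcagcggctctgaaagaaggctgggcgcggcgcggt
The Slc7a11 window holds the core once on each strand, beginning 66 and 47 bases before the start, and the Slc1a4 window holds it on the opposite strand, beginning 4 bases before the start. For Slc7a7 the core was found in 2 of 5 windows. It began 141 bases and 1 base before the start in 1 window, and 243 bases before the start in the other. These 2 windows overlap and have 1 match in common, so they are not separate finds among the 4. In the Slc3a2 window these letters were not found. Among the amino acid response list 24 genes had a window and 8 held the core. Of these Vldlr was not tested and the other 7 were lower, as were 21 of the 24 tested genes of the list with or without the core. The E-box CAGCTG, which muscle factors bind, was found in 4 of the 33 windows of the transporters and in 16.3% of all windows. The antioxidant response element TGACNNNGC was found in 8 of the 33 and in 12.4% of all. Among those 8, the 2 windows of Slc7a6 overlap and share their match. A match describes the letters of a window and not binding.

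The next list held 23 genes for enzymes that charge tRNA with amino acids or for proteins in complex with them. Of these 11 were lower, 5 higher and 7 did not pass, where 26.6% of all tested genes were lower and 25.5% higher. The median log2 fold change was -0.11. The higher genes were Aimp1, Aimp2 and Eef1e1 (0.20, 0.33 and 0.21), which charge no tRNA, and the enzyme genes Dars and Farsb (0.14 and 0.13). The alanine, threonine, cysteine and lysine enzymes Aars, Tars, Cars and Kars fell (log2 fold changes of -0.32, -0.33, -0.34 and -0.27). With libraries scaled by size alone 6 were lower and 6 higher, so the direction of this list depends on the scaling. The count of higher genes was 3 without Ctrl-gRNA replicate 3, Prr33-gRNA replicate 1 or Prr33-gRNA replicate 3. The list of mTORC1 amino acid sensing had 12 of 35 higher and 7 lower, with a median of 0.06, beside 25.5% and 26.6% of all tested genes. Size-only scaling gave 18 higher and 4 lower. Sesn3, a sestrin that restrains mTORC1, had 41.7, 33.4 and 40.7 CPM in Prr33-gRNA, against 15.3, 17.2 and 14.9 CPM in Ctrl-gRNA (1.29, SE 0.09; edgeR adjusted p = 7.35e-14). The GTPase Rragc rose by 0.50, and Seh1l and Bmt2, which act in the sensing of amino acids and methionine metabolites, rose by 0.41 and 0.48. Among the 7 lower genes were Mtor (-0.17, SE 0.05) and Rptor (-0.24, SE 0.05). The sestrins did not move together, since Sesn1 rose by 0.31 and Sesn2, counted in the amino acid response list, fell (-0.76, SE 0.09). Mtor, Rptor, Sesn1 and Sesn2 were named after their values were seen.

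Among enzymes that use the transported amino acids, 5 of 16 genes for glutamine, glutamate and glutathione metabolism were higher and 4 lower, shares near the 25.5% and 26.6% of all tested genes. Glud1, glutamate dehydrogenase, fell (-0.81, SE 0.05) and lies on chromosome 14, and Ggt7, of the gamma-glutamyltransferase family, fell (-3.42, SE 0.31), as did glutamine synthetase Glul (-0.48, SE 0.07). Ggt7 and, below, Mccc2 reached the low-count filter through the Ctrl-gRNA libraries alone and Bckdhb through the Prr33-gRNA libraries alone, so these had to differ. In the breakdown of branched-chain amino acids 5 of 19 were higher and 7 lower, and 2 of them had almost all their reads in 1 group. Without Ctrl-gRNA replicate 1 the higher genes numbered 2. Mccc2, a subunit of the leucine-pathway enzyme methylcrotonoyl-CoA carboxylase, had 0, 0 and 0 counts in Prr33-gRNA and 120, 104 and 92 in Ctrl-gRNA, which is at least 115-fold lower when 3 counts are put in for the whole Prr33-gRNA group. Bckdhb, a subunit of the branched-chain ketoacid dehydrogenase, had 130, 116 and 105 counts in Prr33-gRNA and 2, 0 and 4 in Ctrl-gRNA, a ratio of 53.6 (95% counting interval 24.4 to 147). Pcca, on chromosome 14, fell (-1.04, SE 0.09), and Bcat1, the cytosolic transaminase that takes the amino group from leucine, fell (-1.29, SE 0.17).

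Gamt, whose enzyme makes the last step of creatine synthesis, rose by 0.57 on the log2 scale (SE 0.07; edgeR adjusted p = 3.96e-08), while Gatm, Csad and Cdo1 did not pass, so that 1 of 4 tested genes for creatine and taurine synthesis was called, or 2 without Ctrl-gRNA replicate 2. Among amino acid carriers of mitochondria, lysosomes and other families, 5 of 16 were higher and 6 lower. The shares over all tested genes, for each list of this paragraph, were 25.5% higher and 26.6% lower. The mitochondrial glutamate carrier Slc25a22 fell (-0.98, SE 0.08), as did Slc16a10, which exports aromatic amino acids (-0.95, SE 0.12), the basic amino acid carrier Slc25a29 (-0.73, SE 0.10) and Sfxn2 (-0.96, SE 0.17). Of 10 genes of the NRF2 antioxidant pathway, which also governs Slc7a11, 5 were higher and 3 lower, the higher ones being 3 without Ctrl-gRNA replicate 2 or Prr33-gRNA replicate 3. Malic enzyme Me1 and sulfiredoxin Srxn1 rose by 0.60 and 0.71, and heme oxygenase Hmox1 and Gstm1 fell (-0.73, SE 0.07, and -0.90, SE 0.14).

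**Figure D5:**
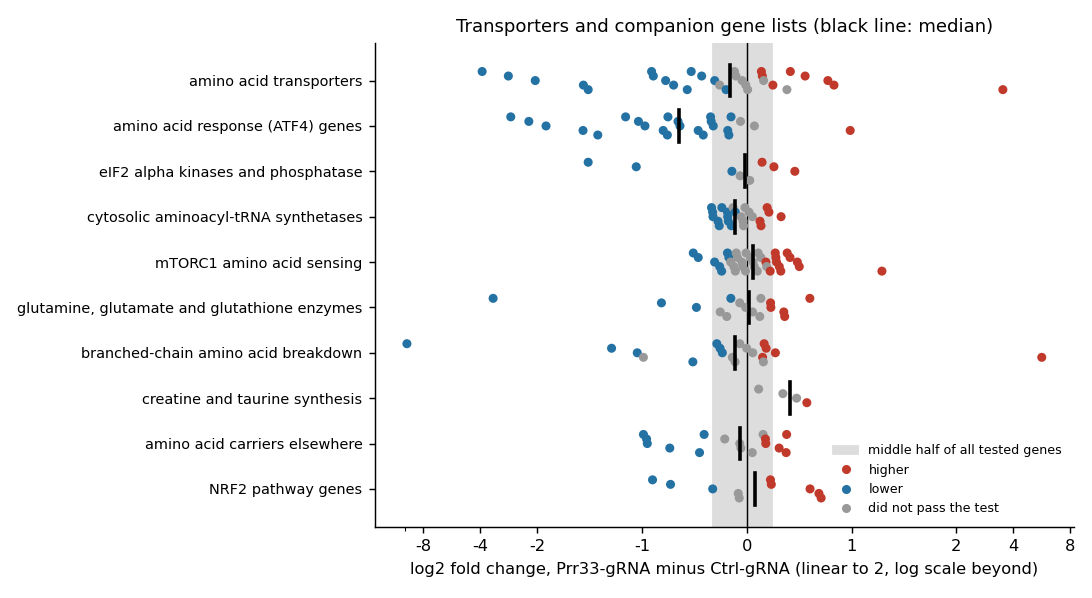
Log2 fold change of each tested gene in the transporter set and in the 9 companion lists, on an axis that is linear to 2 and logarithmic beyond. Black lines are medians, and the grey band spans the quartiles of all tested genes, from -0.32 to 0.24. The medians run from -0.65 for the amino acid response list, with the transporters at -0.16, to 0.41 for the 4 tested genes of creatine and taurine synthesis.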

How the data were processed

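Whole-number read counts per gene were deposited by the authors without normalization, and FPKM values per gene were deposited by the authors beside them. The build was mm10, and featureCounts 1.5.0-p3, HISAT2 2.0.5 and CASAVA are named as tools, per the submitters' processing notes. The annotation release, the strand setting and the treatment of reads with several hits are not given in the sources used here. The 64 members have the same start and end in GENCODE M21.

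Counts were tested over the whole table with edgeR 4.0.16 in R 4.3.3 (filterByExpr, about 0.566 CPM or more in at least 3 libraries, TMM scaling, glmQLFit with robust fitting, 2 groups, no covariate), with Benjamini-Hochberg adjustment and a threshold of 0.05. SE is the absolute log2 fold change over the square root of F. FPKM served for levels between genes and for limma 3.58.1. On simulated counts of 14445 tested genes, 50 of them altered by each fold, the test found 23 of those changed 1.25-fold. It found 34 of those changed 1.5-fold, 43 of those changed 2-fold and all 50 changed 4-fold, and made 11 false calls. With 3 counts as the floor, a library resolves 0.150 to 0.182 CPM. Intervals cover counting error only. Between libraries within a group, chi-square per gene was 2.88 to 5.66, above counting noise.

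The members, the gene lists and the tests were chosen with earlier results of these data known. Named were Prr33, every tested member, and up to 4 genes per companion list with the lowest adjusted p. Libraries are given for members past the threshold that moved by 0.58 or more on the log2 scale or averaging at least 50 CPM. Alternatives were RLE and size-only scaling, DESeq2 1.42.0, limma-voom, 2 other low-count filters, protein-coding genes only, chromosome 14 left out, limma on log2(FPKM + 1) and log2(FPKM + 0.1), replicate number as a block, 2 stricter thresholds and leaving out each library. Figures were drawn with matplotlib 3.10.9.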

Additional observations from a re-analysis of the deposited data

How the results depend on the processing

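Over 17 alternative fits, 8 to 9 of the transporters were higher and 12 to 14 lower, and no member called in both an alternative and the edgeR test changed direction. With single libraries left out, 8 to 9 were higher and 13 to 14 lower. Requiring a 2-fold change left 1 higher and 5 lower, and Prr33 (-0.42) then missed it too. Size-only scaling gave 9 higher and 13 lower among the transporters, while over all tested genes it gave 5002 higher and 3096 lower, against 3740 and 3899. Some members that did not pass changed sign. Slc38a1 was 0.0802 with size-only scaling, 0.0019 without a low-count filter and -0.0417 to 0.0270 with single libraries left out. Slc7a6 was -0.00492 with chromosome 14 left out and -0.0437 to 0.0709 with single libraries left out, and Slc7a6os was 0.0460 with size-only scaling and -0.12 to 0.0216 with single libraries left out. Among others that did not pass, leaving out single libraries gave 0.21 to 0.69 for Slc1a6 and -0.18 to -0.0427 for Slc38a9. The addend to FPKM shrank low genes most, so that on log2(FPKM + 1) Slc6a15 was 0.68, Slc7a7 -0.43 and Slc1a3 -0.19, all still called. Slc7a11 lost its call on log2(FPKM + 0.1) and log2(FPKM + 1) (limma adjusted p = 0.0700 and 0.0660). The cause of the other changes was not tested. Deviations of same-numbered libraries were uncorrelated (-0.0143, -0.00558 and 0.0438), so no pairing was assumed, and a fit with the replicate block gave 8 higher and 14 lower. Below about 1 CPM, as for Slc7a7 and Slc1a3, few reads carry each value.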
